A study of Mus musculus with 15 samples.

Results

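The genes described here are 9 regulators of cell cycle exit and senescence, out of 43629 genes listed in the brain count tables: the CIP/KIP inhibitors Cdkn1a, Cdkn1b and Cdkn1c, the INK4 inhibitors Cdkn2a, Cdkn2b, Cdkn2c and Cdkn2d, the transcription factor Trp53 and the nuclear lamina gene Lmnb1. They were chosen by name, as genes whose RNA is commonly read as a sign of senescence, with earlier results of these data known. RNA was sequenced from the whole brain of 15 wildtype male C57BL/6J mice, with 1 library per mouse. The study compared ad libitum feeding (AL) with every-other-day feeding (EOD, which the sample labels call intermittent fasting) in mice labelled 3 months (young) and 24 months (old). Of the young mice 4 were fed AL and 3 EOD, and of the old mice 4 were on each regimen. EOD began in early adulthood, so that young EOD mice had been on the diet for a short spell only, whereas old EOD mice had been on it for most of their lives. Diet in the young and diet in the old are thus not the same exposure. Of the 9 genes, 7 had enough counts to be tested among the 15864 genes that entered the fit, and 2, Cdkn2a and Cdkn2b, were too low to judge.

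Cyclin-dependent kinases drive cells through the division cycle, and their inhibitors hold them back. INK4 proteins bind CDK4 and CDK6 and block their pairing with D-type cyclins, while CIP/KIP proteins bind assembled cyclin-CDK complexes, mainly those of CDK2. Both arms keep RB proteins active and E2F targets silent. Cdkn1a (p21) is a classical target of p53, and Cdkn2a encodes p16Ink4a and, from another first exon and reading frame, p19Arf, which shields p53 from MDM2. In senescent cells p16 and p21 are typically raised, lamin B1 (Lmnb1) is typically lost, and many cells secrete cytokines, proteases and growth factors. Most cells of the adult brain are neurons and glia that no longer divide.

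Cdkn1a and Cdkn2a, like Cdkn2c, have more than 1 start in RefSeq, and the count of each gene sums RNA from all of its starts. The stretches below lie before RefSeq starts (GRCm38.p6) and are shown because Cdkn1a is the gene of the set with a match to the p53 response element in these windows and because the p16Ink4a and p19Arf transcripts of Cdkn2a could not be separated. In the first, capitals mark the match to the p53 consensus (both parts of the site with no spacer, at most 1 mismatch), which begins 51 bases before the start. In the other stretches capitals mark the GC box GGGCGG, read on either strand. The Arf stretch stops at the edge of the gene as counted (89294653), which lies upstream of the RefSeq start (89294619).
Cdkn1a, upstream start, chr17:29090898-29090977, plus strand: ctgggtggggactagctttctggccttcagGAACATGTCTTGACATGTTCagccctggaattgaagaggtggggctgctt
Cdkn1a, downstream start, chr17:29093669-29093768, plus strand: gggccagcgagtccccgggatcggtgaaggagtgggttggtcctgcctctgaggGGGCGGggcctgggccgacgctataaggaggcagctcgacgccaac
Cdkn2a, Arf start, chr4:89294654-89294753, minus strand: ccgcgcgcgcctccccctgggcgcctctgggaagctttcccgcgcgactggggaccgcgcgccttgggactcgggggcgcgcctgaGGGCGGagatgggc
Cdkn2a, Ink4a start, chr4:89282193-89282292, minus strand: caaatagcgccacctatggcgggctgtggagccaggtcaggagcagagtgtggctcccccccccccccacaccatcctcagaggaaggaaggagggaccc
The starts of Cdkn1a lie 2790 bases apart and those of Cdkn2a 12427 bases apart. RefSeq windows of 250 bases before to 50 bases after a start were found for 7 of the 9 genes (10 windows in all). There was none for Cdkn1c or Lmnb1. A match to the p53 consensus with at most 1 mismatch stood in 29 of 32841 windows of all genes (0.0883%), and an exact match in 3 (0.00914%). Among the 10 windows only the upstream one of Cdkn1a held such a match, and it was not exact. GC boxes were common, in 11713 of the 32841 windows (35.7%) and in 7 of the 10. The window of the Arf start held 3 GC boxes at 77% G and C and that of the Ink4a start 1 at 60.3%, which lies outside the printed stretch. A letter match is a description of the sequence and says nothing of binding in these brains.

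Sequencing gave 5198748 to 13610729 counted reads per mouse (median 9886766), and values are given as CPM, the count scaled to library size after TMM adjustment. Young AL mouse 3 stood apart from the others: 17280 genes had a count in it, against 19054 to 20880 in the other mice, and its median correlation with the other mice was 0.957 against 0.977 to 0.981. Calls of pathway genes that change without this mouse are given beside their lists. Neuron markers summed to 8736 to 10860 CPM per mouse and astrocyte markers to 5095 to 5992 CPM. Pituitary markers reached 1049 CPM in old AL mouse 4, against a median of 1.31 CPM over all mice. The libraries ran on 3 lanes named in the file headers, and lane 3 held no young EOD mouse. Age and diet were compared in 7 ways in 1 fit over all mice by edgeR's quasi-likelihood test: age within each diet, diet within each age, both averages, and the interaction of age and diet. A gene was called at a Benjamini-Hochberg adjusted p (FDR) under 0.1.

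Per kilobase of exon, the 9 genes covered a wide range of levels (plot of level per exon length). Cdkn2d (p19Ink4d), which helps to keep mature neurons out of the cycle, was the most abundant at 26.8 ± 3.07 CPM per kb (mean ± SD, n = 15), and it lay above 86.7% of the tested genes. Cdkn1b (p27), which holds cells in quiescence, followed at 15.8 ± 1.49 and Cdkn1a at 9.38 ± 2.41 CPM per kb. Trp53 stood at 3.14 ± 0.421, Lmnb1 at 2.95 ± 0.461 and Cdkn1c (p57), an imprinted inhibitor of precursor cells, at 2.43 ± 0.549 CPM per kb. Cdkn2c (p18) was at 0.847 ± 0.206, Cdkn2b (p15) at 0.268 ± 0.237 and Cdkn2a at 0.0621 ± 0.0838 CPM per kb. The ranges over the 15 mice did not overlap between Cdkn2d and Cdkn1b, between Cdkn1a and Trp53, or between Cdkn1c and Cdkn2c. All other neighbours in this order overlapped. Cdkn1b was above Cdkn1a in 14 of 15 mice, whereas Trp53 was above Lmnb1 in 9 and Lmnb1 above Cdkn1c in 10, so that the order of these last genes was not fixed. In whole tissue a lower level can mean fewer cells that express a gene or less RNA in each, and these cannot be told apart.

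**Figure D1:**
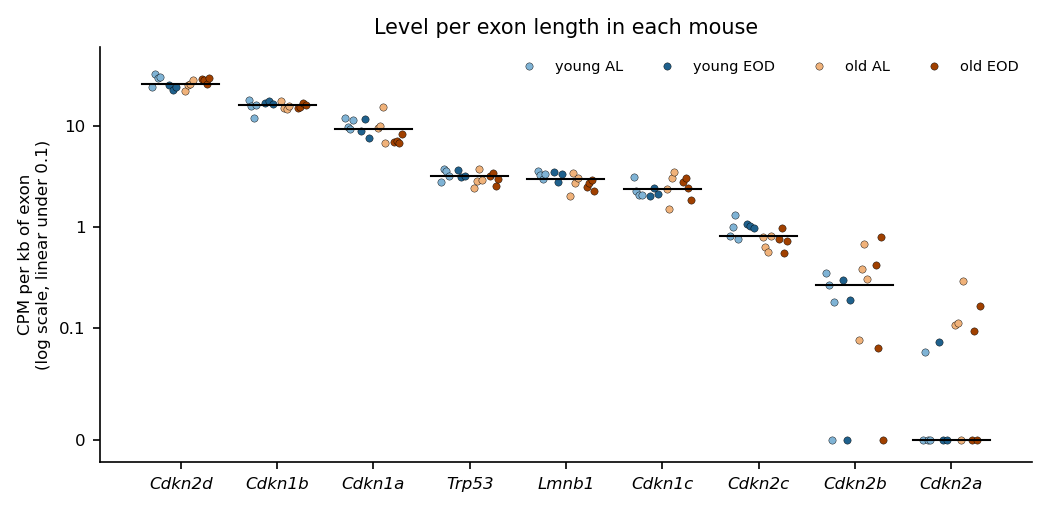
Level of each gene in CPM per kilobase of exon (vertical axis, log scale above 0.1 and linear under it), with 1 point per mouse coloured by group and a line at the median of the 15 mice. Cdkn2d and Cdkn1b sit at the top, and Cdkn2a has its median at 0.

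Neither age nor diet changed any of the 7 tested genes past the threshold. In AL mice 0 of 7 were called with age, where 1.09% of all genes tested were called (173 of 15864, 150 up and 23 down). In EOD mice 0 of 7 were called with age, against a background of 0.290% (46 genes), and for age averaged over the diets 0 of 7, against 2.30% (365 genes, 257 up and 108 down). For diet in young mice, diet in old mice, diet averaged over the ages and the interaction, edgeR called 0 of 7 members and 0% of all genes. DESeq2 also called 0 of 7 in each of the 7 comparisons. At an unadjusted p under 0.05 there were 6 of 49 edgeR tests: 2 for age averaged over the diets (where 11.7% of all genes passed that mark), 1 for diet in young mice (4.14%), 1 for diet in old mice (2.58%), 1 for diet averaged over the ages (4.51%) and 1 for the interaction (2.28%). By DESeq2 the same count was 1 in each of these 5 comparisons and 0 for age within either diet. The smallest FDR of a member was 0.379 (edgeR). The median log2 fold change of the 7 genes with age was −0.17 in AL mice and −0.13 in EOD mice, beside −0.01 and −0.0004 over all genes tested, which is a description and not a test. The comparisons within AL, within EOD and averaged share mice, so that like values in them are not independent.

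**Figure D2:**
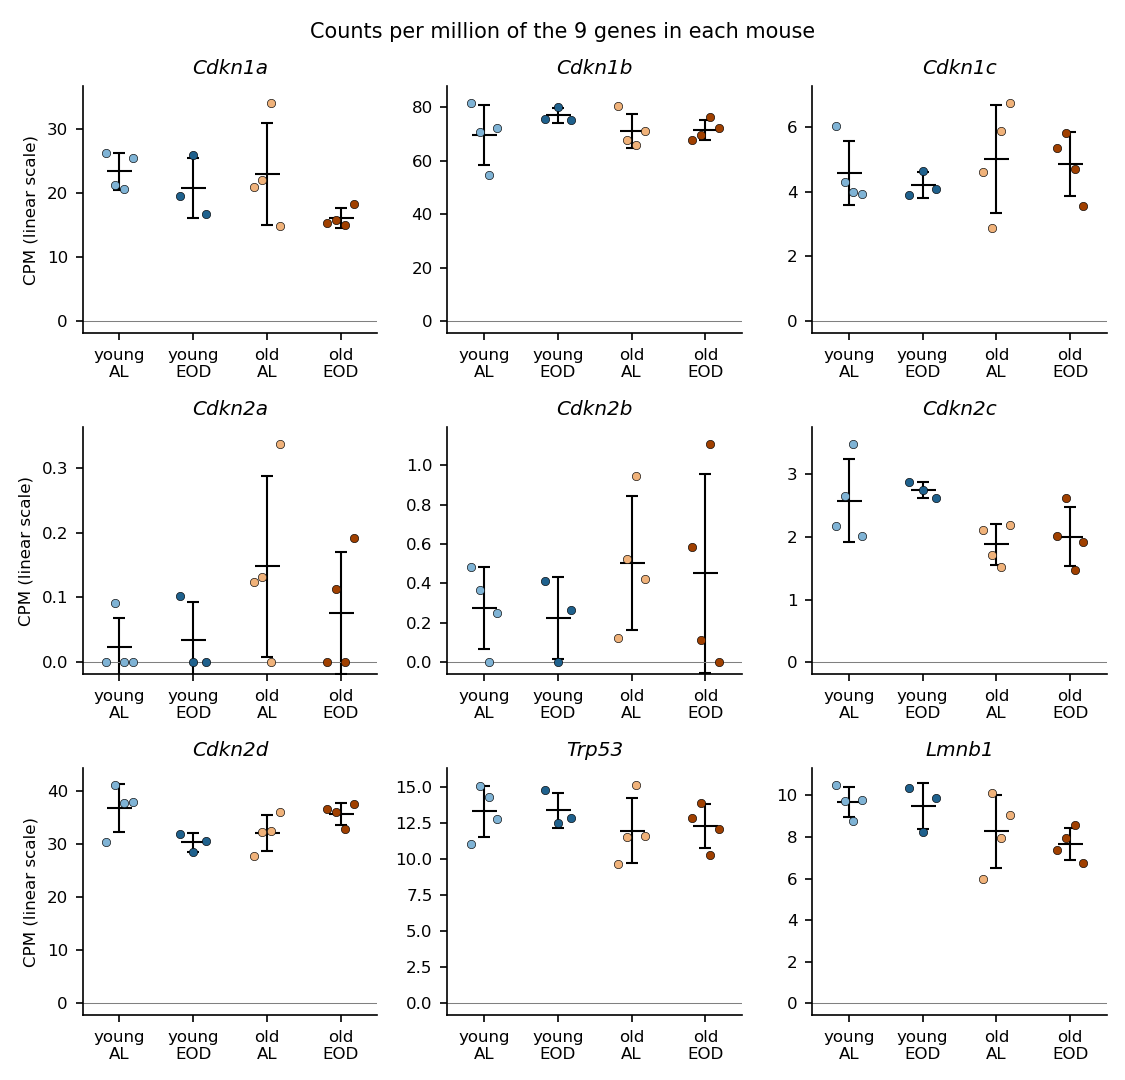
CPM (vertical axis, linear) of the 9 genes, 1 panel each, with 1 point per mouse in the order of mouse number and a bar for the mean ± SD of each group (3 mice in young EOD, 4 in each of the others). Groups overlap in nearly every panel, old EOD mice lie close together for Cdkn1a, and most points of Cdkn2a are at 0.

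Of the CIP/KIP inhibitors, Cdkn1a (chr17:29090979-29100722) varied the most among old AL mice. In young AL mice it was at 26.3, 21.4, 20.6 and 25.5 CPM, and in young EOD mice at 19.6, 26.0 and 16.8 CPM. In old AL mice it was at 21.01, 22.1, 34.1 and 14.9 CPM, and in old EOD mice at 15.4, 15.8, 15.01 and 18.4 CPM. The highest and the lowest of all 15 mice were thus both old AL mice (mice 3 and 4), while the old EOD mice spanned a narrow range within that of the old AL group. With age Cdkn1a moved by −0.06 on the log2 scale in AL mice (95% interval −0.43 to 0.32, edgeR FDR = 0.953) and by −0.35 in EOD mice (−0.77 to 0.06, FDR = 0.942), the latter −0.18 without young EOD mouse 2. For diet in old mice the log2 fold change was −0.48 (SE 0.18, 95% interval −0.86 to −0.09), which is 0.719 of the AL level, with an edgeR FDR of 1.0. It was 1 of the 6 tests with an unadjusted p under 0.05. Without old AL mouse 3 this value was −0.25, and without old AL mouse 4, the mouse with the high pituitary markers, it was −0.65. Within lanes the difference in log2 CPM was −0.44 in lane 1 and −0.78 in lane 2 but 0.16 in lane 3, each from 1 or 2 mice in a group. In young mice the change with diet was −0.18 (−0.59 to 0.23), and averaged over the ages −0.33 (−0.61 to −0.05, edgeR FDR = 0.983), another of the 6. The interaction of age and diet was −0.30 (−0.86 to 0.27), so the values in old and young mice were not shown to differ.

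Cdkn1b (chr6:134920401-134925513), with 348 to 861 reads per mouse, was the most precisely measured of the set. Its range was 54.5 to 81.3 CPM in young AL, 75.04 to 79.95 in young EOD, 65.8 to 80.2 in old AL and 67.8 to 76.3 in old EOD mice. All 4 ranges overlapped, and the lowest value was that of young AL mouse 3. The log2 fold change with age was 0.04 (95% interval −0.17 to 0.24) in AL and −0.10 (−0.33 to 0.12) in EOD mice. With diet it was 0.15 (−0.08 to 0.37) in young mice, or 0.04 without young AL mouse 3, and 0.003 (−0.20 to 0.21) in old mice. At the 95% level the data thus left room for changes of up to 1.29-fold with diet in young mice and 1.16-fold in old mice. Cdkn1c (chr7:143458350-143461050), with 22 to 80 reads per mouse, lay between 2.89 and 6.72 CPM, and both of these extremes were old AL mice. Its log2 fold change with age was 0.16 (−0.35 to 0.67) in AL mice (−0.04 without old AL mouse 4) and 0.21 (−0.35 to 0.78) in EOD mice, with diet −0.11 (−0.68 to 0.45) in young and −0.06 (−0.57 to 0.45) in old mice. None of these intervals excluded 0.

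Among the INK4 inhibitors, Cdkn2d (chr9:21288463-21291209) had the lowest unadjusted p of the whole set, for the interaction. It was at 30.5, 41.1, 37.9 and 38.1 CPM in young AL mice and at 31.9, 28.5 and 30.6 CPM in young EOD mice. In old AL mice it was at 27.9, 32.4, 32.5 and 36.1 CPM, and in old EOD mice at 36.7, 36.1, 32.9 and 37.6 CPM. Young EOD mice were low, and all 4 old EOD mice lay above all 3 of them. Within the other comparisons the groups overlapped, although 3 of the 4 young AL mice were above every young EOD mouse. The diet change was −0.28 in young mice (SE 0.11, 95% interval −0.51 to −0.05, edgeR FDR = 0.996) and 0.15 in old mice (−0.07 to 0.36). Their difference, the interaction, was 0.43 (SE 0.15, 95% interval 0.11 to 0.75, edgeR FDR = 1.0). Both were among the 6 tests with an unadjusted p under 0.05. With age Cdkn2d moved by −0.19 (−0.41 to 0.02) in AL mice and by 0.23 (−0.0002 to 0.47) in EOD mice. Averaged over the diets it moved by 0.02 (−0.14 to 0.18). Within lanes the change with diet was −0.15 and −0.35 in young mice (lanes 1 and 2) and 0.39, 0.15 and −0.04 in old mice (lanes 1, 2 and 3), the last with the other sign. The change with age was −0.34, −0.22 and −0.07 in AL mice (lanes 1, 2 and 3) and 0.20 and 0.29 in EOD mice (lanes 1 and 2), and with lane as a covariate the interaction was 0.41.

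Cdkn2c (chr4:109660876-109667189), with 8 to 46 reads per mouse, was lower in old than in young mice on average. It was at 2.17, 2.66, 3.47 and 2.01 CPM in young AL mice and at 2.87, 2.75 and 2.63 CPM in young EOD mice. In old AL mice it was at 2.11, 1.71, 1.51 and 2.19 CPM, and in old EOD mice at 2.01, 2.62, 1.47 and 1.92 CPM. Old and young EOD mice did not overlap, though old EOD mouse 2 at 2.62 CPM lay just under young EOD mouse 3 at 2.63 CPM, while old and young AL mice did. The log2 fold change averaged over the diets was −0.45 (SE 0.21, 95% interval −0.88 to −0.02, edgeR FDR = 0.395), which is 0.731 of the young level, and its unadjusted p was under 0.05. Without young AL mouse 3, which had the highest value, it was −0.35. Within AL mice it was −0.44 (−1.03 to 0.15), or −0.24 without that mouse, and within EOD mice −0.46 (−1.10 to 0.17). Within lanes 1, 2 and 3 the old minus young difference in log2 CPM was −0.28, −0.58 and −0.11. For diet the intervals of Cdkn2c reached from −0.53 to 0.70 in young and from −0.55 to 0.67 in old mice. In EOD mice Cdkn2c and Cdkn2d were the 2 of 7 genes whose old and young mice did not overlap, in opposite directions, where 9.04% of all genes tested showed no overlap. In the other comparisons 0 of 7 lacked overlap, beside 4.56% of all genes for age in AL mice, 4.45% for diet in young mice and 2.59% for diet in old mice.

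Cdkn2a (chr4:89274471-89294653) and its neighbour Cdkn2b (chr4:89306289-89311032), the INK4 genes most often used to mark senescent cells, were too low to judge. Cdkn2a had 11 reads in all 15 mice together: 0, 1, 0 and 0 in young AL, 1, 0 and 0 in young EOD, 1, 1, 0 and 4 in old AL and 0, 1, 0 and 2 in old EOD mice. So 8 of 15 mice had no read, and no mouse had more than 4. A mouse with 0 reads can still hold up to 3 by counting error alone. Of the 11 reads 9 were in old mice, among 74814954 reads counted, and 2 in young mice, among 67945242, a ratio of 4.09 per read with a 95% counting interval of 0.846 to 38.9. Over mice the mean was 0.112 ± 0.116 CPM in the 8 old and 0.0278 ± 0.0475 CPM in the 7 young mice (SD), and an exact two-sided permutation test gave p = 0.0721 (unadjusted, 1 of 10 such tests). Without any 1 of the 3 old mice that had no Cdkn2a read (old AL mouse 3, old EOD mouse 1 or old EOD mouse 3), that p was 0.0373. Leaving out an old mouse with 0 reads raises the old mean by itself, so this p is no added support. With each mouse left out in turn, the old minus young difference was 0.0525 to 0.101 CPM, beside 0.0845 CPM with all mice.

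For Cdkn2a within AL mice the exact permutation p for age was 0.143 and within EOD mice 0.571. For diet it was 0.857 in young and 0.457 in old mice. The smallest p the design allows is 0.0286 for 4 against 4 mice and 0.0571 for 4 against 3. Cdkn2b had 52 reads: 4, 4, 0 and 3 in young AL, 4, 0 and 2 in young EOD, 1, 4, 5 and 5 in old AL and 7, 1, 12 and 0 in old EOD mice. Old EOD mice held both the highest count and one of the 3 zeros. Old mice had 35 of the 52 reads, a ratio of 1.87 per read (95% counting interval 1.02 to 3.56), but over mice the difference of 0.224 CPM had an exact two-sided permutation p of 0.206. The interval covers counting error only, and the spread between mice is wider. For diet the exact permutation p of Cdkn2b was 0.857 in young and 0.914 in old mice. In a fit without the filter on low counts, edgeR gave an FDR of 0.672 for Cdkn2a and 0.801 for Cdkn2b for age in AL mice. The depth of these libraries thus could not show a change of either gene, and a change was not shown to be absent.

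**Figure D3:**
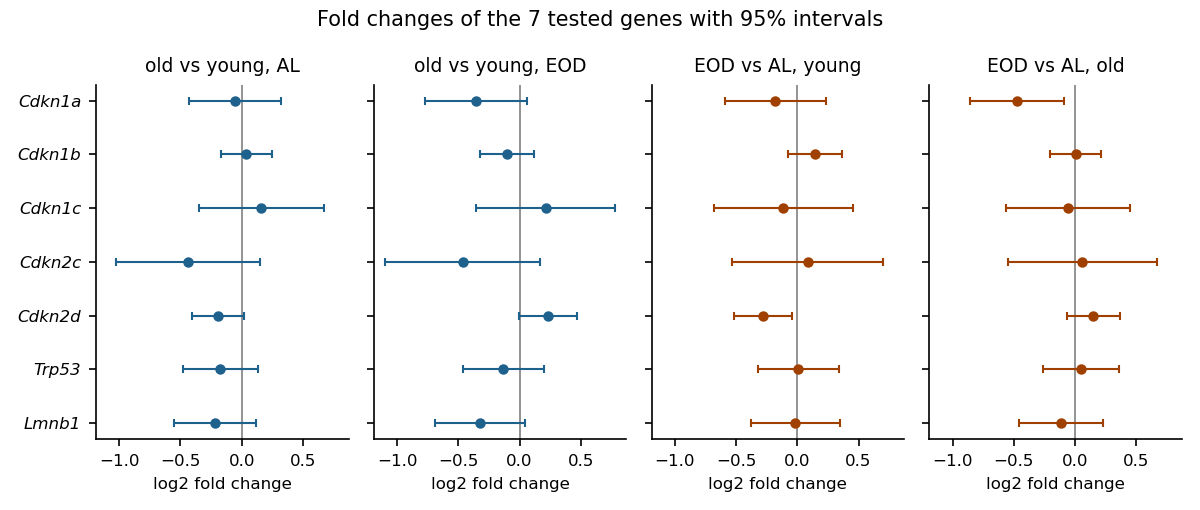
Log2 fold changes (horizontal axis) of the 7 tested genes for age in AL and EOD mice and for diet in young and old mice, with bars for the 95% intervals of the edgeR fit. The interval excludes 0 for Cdkn2d with diet in young mice and for Cdkn1a with diet in old mice, before any adjustment, and the widest intervals are those of Cdkn2c and Cdkn1c.

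Trp53 (chr11:69580359-69591873), which is regulated mainly through the stability of its protein, differed little between the group means. It was at 11.1 to 15.1 CPM in young AL, 12.6 to 14.8 in young EOD, 9.70 to 15.1 in old AL and 10.3 to 13.9 in old EOD mice, and all groups overlapped. The log2 fold change with age was −0.17 (95% interval −0.48 to 0.13) in AL and −0.13 (−0.47 to 0.20) in EOD mice. The first was −0.09 without old AL mouse 1 and −0.29 without old AL mouse 3, and the other −0.05 without young EOD mouse 1 or old EOD mouse 3. With diet it was 0.01 (−0.32 to 0.34) in young and 0.05 (−0.26 to 0.36) in old mice.

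Lmnb1 (chr18:56707813-56753424), whose protein lines the inside of the nuclear envelope, had a lower mean in old than in young mice, short of a call. It was at 10.5, 9.71, 8.76 and 9.79 CPM in young AL mice and at 10.4, 8.25 and 9.86 CPM in young EOD mice. In old AL mice it was at 5.97, 10.1, 7.94 and 9.08 CPM, and in old EOD mice at 7.37, 7.97, 8.56 and 6.73 CPM. The lowest mouse was old AL mouse 1, but old AL mouse 2 was among the highest, and old and young mice overlapped under both diets. Averaged over the diets, Lmnb1 was 0.830 of its young level (log2 fold change −0.27, SE 0.12, 95% interval −0.52 to −0.02, edgeR FDR = 0.379), again with an unadjusted p under 0.05. Within AL mice the change was −0.22 (−0.56 to 0.12), or −0.09 without old AL mouse 1, and within EOD mice −0.32 (−0.69 to 0.05). Within lanes 1, 2 and 3 the old minus young difference in log2 CPM was −0.60, −0.05 and −0.27. With diet it moved by −0.02 (−0.38 to 0.35) in young and by −0.12 (−0.46 to 0.23) in old mice. Markers of immature neurons summed to a median of 228 CPM in young AL, 191 in young EOD, 165 in old AL and 182 CPM in old EOD mice, and their part in the Lmnb1 values was not tested.

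The wider pathway was read from 10 lists of related genes (members left out), with 212 different genes tested. The lists were chosen with earlier results of these data known, so the shares of calls are a description and not a test. Of the 212 genes, 11 were called for age averaged over the diets, 5.19% beside the 2.30% of all genes. In AL mice 5 were called (2.36%, beside 1.09% of all genes) and in EOD mice 3 (1.42%, beside 0.290%), all upward, as were 150 of the 173 and 41 of the 46 calls over all genes. For diet in young mice, diet in old mice, diet averaged over the ages and the interaction edgeR called 0 of the 212, with 10, 5, 7 and 10 at an unadjusted p under 0.05 (4.72%, 2.36%, 3.30% and 4.72%, beside 4.14%, 2.58%, 4.51% and 2.28% of all genes), and DESeq2 called 0 as well. The calls lay almost wholly in the lists of senescence-associated genes, as the plot of the related pathways shows. Among the 11 for age averaged over the diets, Ccl3, Cxcl5 and Lgals3 passed the filter on low counts only through the old mice. Top2a passed it only through the young mice.

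**Figure D4:**
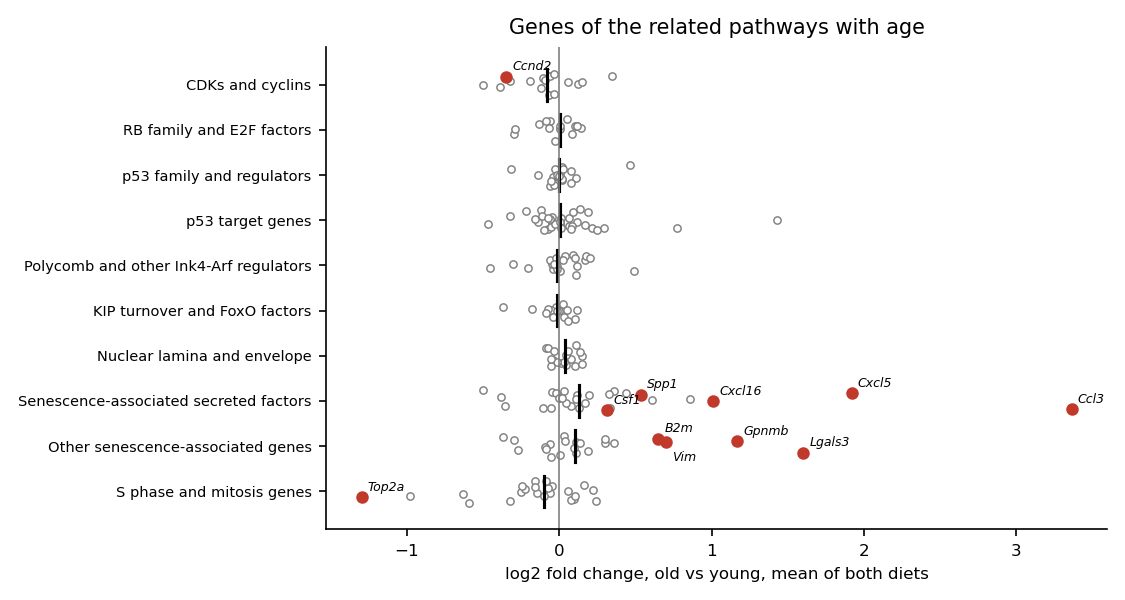
Log2 fold change with age, averaged over both diets (horizontal axis), for the tested genes of 10 related lists, with filled named points for genes at an edgeR FDR under 0.1, open points for the others and a line at each list's median. Called genes are 9 upward in the lists of senescence-associated genes and 2 downward, Ccnd2 and Top2a.

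Few kinases, cyclins or genes of dividing cells were called. Of 16 CDKs, cyclins and their activators, 1 fell with age averaged over the diets. It was Ccnd2, the D-type cyclin of neural precursors, at 64.8 ± 6.52 CPM in 7 young and 50.8 ± 7.75 in 8 old mice (SD, log2 fold change −0.35, SE 0.09, edgeR FDR = 0.0660). Its FDR was 0.1 or more in 8 of the 15 fits that left out a mouse (young AL 3 or 4, young EOD 1 or 2, old AL 2 or 4, old EOD 1 or 3), at 0.102 without young AL mouse 3 and up to 0.202 without young EOD mouse 2. Of 23 S phase and mitosis genes, 1 fell, Top2a, the topoisomerase of dividing cells, from 2.09 ± 0.863 to 0.820 ± 0.363 CPM (log2 fold change −1.30, SE 0.33, edgeR FDR = 0.0504). Apart from old AL mouse 1, at 1.49 CPM, no old mouse was above 1.009 CPM. Top2a thus passed the filter on low counts only through the young mice, where it was high. It was lost in 5 of the 15 such fits (young EOD 1 or 2, old AL 2, old EOD 2 or 4), up to an FDR of 0.195 without young EOD mouse 2. Of 8 markers of immature neurons 2 fell as well, Sox4 and Igfbpl1. The sum of that list overlapped between old mice (150 to 199 CPM) and young mice (167 to 243 CPM). Of 7 markers of oligodendrocyte precursors 1 fell, Gpr17. The part of these cell types in the fall of Ccnd2 and Top2a was not tested. Without young AL mouse 3, Cenpf, a kinetochore protein, was called as well (log2 fold change −1.0, SE 0.27, edgeR FDR = 0.0731, against 0.118 with it). The median of the S phase and mitosis list was −0.10 averaged over the diets, −0.22 in AL mice and 0.03 in EOD mice, beside −0.005, −0.01 and −0.0004 over all genes, and −0.18 for diet in young mice, beside −0.003.

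Of 15 RB family and E2F genes, 20 genes of the p53 family and its regulators, 15 genes of KIP turnover and FoxO signalling and 18 other genes of the nuclear lamina and envelope, none was called by edgeR in any of the 7 comparisons. The gene with the smallest p for age averaged over the diets was E2f3 (log2 fold change −0.13, edgeR FDR = 0.559) in the first of these lists, Rchy1 (0.11, FDR = 0.549) in the second, Cops5 (−0.09, FDR = 0.612) in the third and Sun2 (0.15, FDR = 0.470) in the last. The 23 Polycomb and other regulators of the Ink4-Arf locus gave no call either. Cbx8, a Polycomb subunit that silences this locus in dividing cells, was nearest at −0.45 (SE 0.17, edgeR FDR = 0.251), and without young AL mouse 3 its FDR was 0.0806. The medians of these 5 lists for age averaged over the diets lay between −0.01 and 0.04.

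None of 33 p53 target genes was called by edgeR, in any of the 7 comparisons, and the list's median for age averaged over the diets was 0.01. The nearest was Eda2r, a receptor of the TNF family. It was at 0.723, 0.733, 0 and 0.586 CPM in young AL mice and at 0.411, 0.516 and 0.394 CPM in young EOD mice. In old AL mice it was at 1.37, 2.23, 1.14 and 0.672 CPM, and in old EOD mice at 0.921, 1.02, 1.38 and 1.44 CPM. Old AL mouse 4 was the only old mouse within the young range. No young mouse was above 0.733 CPM, so Eda2r passed the filter on low counts only through the old mice, where it was high. The log2 fold change of Eda2r was 1.43 (SE 0.44, edgeR FDR = 0.137), it was called by DESeq2, and without young AL mouse 3, which had no read, its edgeR FDR was 0.0633. Without that mouse Btg2, an antiproliferative target of p53, was called downward (log2 fold change −0.58, SE 0.15, edgeR FDR = 0.0522, against 0.296 with it).

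Genes of the senescence-associated secretome rose with age, as a part of their list. Of 29 tested secreted factors 5 rose and none fell for age averaged over the diets, and the median of the list was 0.13. The list held 51 genes before the filter on low counts, which Ccl3 and Cxcl5 passed only through the old mice. DESeq2, run on the 50 genes of the list with a count in any mouse, called 10 upward. Without young AL mouse 3 edgeR again called 5, with Icam1, an adhesion molecule, in place of Ccl3 (log2 fold change 0.71, edgeR FDR = 0.0962). The largest change was that of Ccl3, a chemokine of activated microglia, from 0.0596 ± 0.0780 CPM in 7 young to 0.772 ± 0.344 CPM in 8 old mice (SD, log2 fold change 3.36, SE 0.61, edgeR FDR = 0.00370). At these few reads its size depends on the fit. No young mouse had more than 2 reads, so the gene passed the filter only through the old mice, where it was high. It passed in 8 of the 15 fits that left out 1 mouse. In the others, the fit without young AL mouse 3 among them, it was not tested. Cxcl16, a chemokine, went from 1.46 ± 0.670 to 2.97 ± 1.03 CPM (log2 fold change 1.01, SE 0.25, edgeR FDR = 0.0427). By group it was at 1.715 ± 0.731 CPM in young AL, 1.13 ± 0.5015 in young EOD, 3.86 ± 0.574 in old AL and 2.08 ± 0.152 in old EOD mice. Its change with age was 1.15 in AL mice (SE 0.31, edgeR FDR = 0.110) and 0.87 in EOD mice (SE 0.39, edgeR FDR = 0.836). For diet in old mice it was −0.90 (SE 0.31). None of these 3 was called. Spp1 (osteopontin) rose by 0.54 (SE 0.14, FDR = 0.0521) and Csf1, the main growth factor of microglia, by 0.32 (SE 0.08, FDR = 0.0613) on the same scale. The fifth was Cxcl5, named to complete the count (1.92, SE 0.53, edgeR FDR = 0.0800). Apart from young AL mouse 1, at 2.05 CPM, no young mouse was above 0.920 CPM for Cxcl5. Leaving out 1 mouse lost the call of Cxcl16 in 2 of 15 fits, of Csf1 in 5, of Spp1 in 6 and of Cxcl5 in 11, with the highest FDR without young EOD mouse 1 (0.173, 0.210 and 0.196 for the first of these genes in turn) or, for Cxcl5, young EOD mouse 2 (0.219).

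In AL mice alone edgeR called Ccl3 and Csf1 of this list, and DESeq2 called 5. Csf1 was at 19.7 ± 2.31 CPM in young AL, 26.0 ± 2.34 in young EOD, 29.0 ± 3.20 in old AL and 27.4 ± 2.23 CPM in old EOD mice, a change with age of 0.55 in AL mice (SE 0.11, edgeR FDR = 0.0162) and of 0.08 in EOD mice (SE 0.12, FDR = 0.995). The difference between these, the interaction, was −0.47 (SE 0.16, edgeR FDR = 1.0), and it was not shown to differ from 0. In EOD mice none of the 29 was called by edgeR, and without young AL mouse 3 it called Cxcl5 (log2 fold change 2.77, SE 0.64, FDR = 0.0743, against 0.406 with it).

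Of 22 other senescence-associated genes 4 rose with age averaged over the diets, and none fell. B2m, the light chain of MHC class I, was at 85.1 to 107.5 CPM (median 91.8) in 7 young and at 126.4 to 165.7 CPM (median 145.3) in 8 old mice, with no overlap. Vim (vimentin, an intermediate filament of astrocytes and mesenchymal cells) was at 24.6 to 34.6 CPM (median 29.99) in young and 42.6 to 55.0 CPM (median 47.7) in old mice, again with no overlap. The log2 fold changes were 0.65 for B2m (SE 0.06, edgeR FDR = 2.9e-06) and 0.70 for Vim (SE 0.07, edgeR FDR = 4.5e-06), and both were called in AL mice and in EOD mice on their own. Gpnmb, a lysosomal membrane glycoprotein, went from 3.18 ± 1.04 to 6.76 ± 1.37 CPM (log2 fold change 1.17, SE 0.17, edgeR FDR = 0.000293), and Lgals3 (galectin-3) from 0.642 ± 0.275 to 1.87 ± 0.410 CPM (1.60, SE 0.32, edgeR FDR = 0.00949). Old and young mice did not overlap for either gene. Over all genes tested 0.901% showed no overlap of old and young mice. These 4 genes were named because they were called for age, so the lack of overlap is no added support. No young mouse was above 0.9065 CPM for Lgals3. That gene thus passed the filter on low counts only through the old mice, where it was high. In AL mice alone Gpnmb was at an edgeR FDR of 0.0207 (0.104 without old AL mouse 1), and in EOD mice alone at 0.0275 (up to 0.240, without young EOD mouse 3, and above 0.1 also without young EOD mouse 1 or old EOD mouse 2). Lgals3 in AL mice was at an edgeR FDR of 0.102, and at 0.0571 without young AL mouse 3. The list's median was 0.10.

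**Figure D5:**
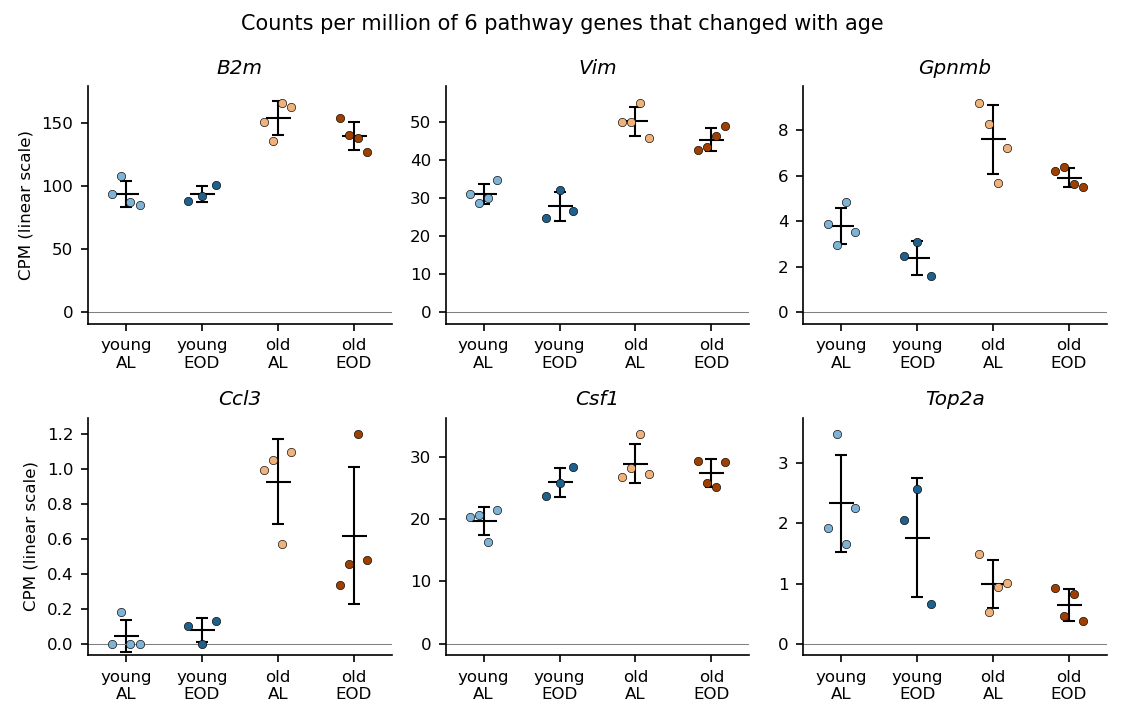
CPM (vertical axis, linear) of 6 pathway genes that were called for age averaged over the diets, with 1 point per mouse and a bar for the mean ± SD of each group. B2m, Vim, Gpnmb and Ccl3 are higher in all 8 old than in all 7 young mice, whereas Csf1 and Top2a overlap between old and young EOD mice. Of all genes tested 0.901% showed no overlap of old and young mice. Ccl3 passed the filter on low counts only through the old mice, and Top2a only through the young mice.

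Markers of microglia moved with age beside these genes. Of 8 microglia markers 4 rose, and the sum of the list was 352 to 386 CPM in young AL, 348 to 370 in young EOD, 445 to 507 in old AL and 427 to 486 CPM in old EOD mice, with none of the 8 at 0. Without young AL mouse 3, 6 of the 8 rose, and 3 of the 8 immature neuron markers fell in place of 2. Among 8 astrocyte markers Gfap rose, while the sum of the list overlapped between old and young mice (5095 to 5820 and 5220 to 5992 CPM). Blood markers summed to 28.0 to 50.8 CPM in young and 44.0 to 102.5 CPM in old mice. The part of these cell types in the rise of the secreted factors, B2m, Vim, Gpnmb and Lgals3 was not tested. Summed microglia markers of old and young mice did not overlap, whereas for each of the 7 tested members the old and young ranges overlapped, as they did for all but 0.901% of the genes tested.

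The genes whose log2 CPM followed each member most closely are given as a description, over the 14 mice other than young AL mouse 3, with r over all 15 mice beside it. These mice share depth, lanes and age groups, and each gene is the highest of 15864. Cdkn1a followed Zfp672 (r = 0.864, and 0.787 over 15 mice), then Gprc5c (0.860 and 0.634) and Stab1 (0.837 and 0.735). Cdkn1b followed Yipf6 at r = 0.949, which was 0.260 once young AL mouse 3 was included, then Pcm1 (0.940 and 0.331) and Bicd1 (0.920 and 0.722). Cdkn1c followed Cdh3 (0.835 and 0.772), then Stk32a (0.755 and 0.699) and Ighmbp2 (0.747 and 0.382). The likeness of Cdkn1b to Yipf6 and Pcm1 thus rested on leaving that mouse out, while for Cdkn1c even the highest value was lower than for the other members.

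Cdkn2c followed Fabp5 (r = 0.851, and 0.639 over 15 mice), a fatty acid binding protein of precursor cells, then Gramd2 (0.849 and 0.891) and Uros (0.839 and 0.715). Cdkn2d followed Crb2 (0.889 and 0.892), then Psmb6 (0.886 and 0.610) and Sh3glb2 (0.849 and 0.569). Trp53 followed Cadm3 (0.911 and 0.658), then Shf (0.847 and 0.856) and Maea (0.843 and 0.851). Lmnb1 followed Bcl2l11 (0.898 and 0.882), then Scube1 (0.869 and 0.685) and Hkdc1 (0.849 and 0.675). No member was among the 3 nearest genes of another member.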

How the data were processed

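RNA came from the whole brains of 15 male mice (C57BL/6J), and 50 bp single-end reads were obtained on an Illumina HiSeq2000. Per the file headers and the study's methods, the authors aligned reads with STAR (version not given in the sources used here) to GRCm38 and counted them with featureCounts 1.5.0-p1 against Ensembl release 79, with reverse-strand counting and a mapping quality of at least 5. The deposited values are raw counts per gene. Total counts per mouse (5198748 to 13610729) set the precision, and counting intervals and floors cover counting error only.

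Symbols were matched for 42462 of 43629 gene identifiers. Counts were scaled by TMM, filtered by filterByExpr and fitted with edgeR 4.0.16 (glmQLFit and glmQLFTest, 4 group means, all 15 mice, Benjamini-Hochberg over 15864 genes, FDR under 0.1). A standard error is the size of the log2 fold change over the square root of F, and a 95% interval uses the t quantile of the fit. The 2 members that did not pass the filter (median count under 10) were tested by exact two-sided permutation of CPM (scipy 1.17.1, 10 tests, unadjusted). Log2 CPM values used a prior count of 2. Alternatives were no filter beyond 1 count in any mouse, a stricter filter (10 counts or more in each mouse), RLE factors, DESeq2 1.42.0, an FDR of 0.05, a replicate block, a lane term, voom with quality weights (limma 3.58.1), and leaving out each mouse. The models were tested on simulated data.

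The members and lists were chosen with earlier results of these data known. Named in the text are all members, up to 4 called genes per list and comparison (or, in lists without a call, the gene with the smallest p for age averaged over the diets) and the 3 genes most like each member. Lane-wise values come from 1 to 3 mice a group and have no test. Replicate libraries differed beyond sampling noise in all 21 pairs within groups (chi-square per degree of freedom 3.01 to 16.6), so none was counted as a duplicate. Promoter sequences are RefSeq's (GRCm38.p6).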

Additional observations from a re-analysis of the deposited data

Results flagged for a closer look

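The interaction of age and diet for Cdkn2d was 0.4287 on the log2 scale (95% interval 0.11 to 0.75), with an edgeR FDR of 1.0 and an unadjusted p under 0.05. It drew attention because the diet change had opposite signs in young mice (−0.28) and in old mice (0.15), and because it stayed between 0.36 and 0.49 whichever of the 15 mice was left out. At that unadjusted mark 362 of 15864 genes (2.28%) passed for the interaction, and edgeR called none of them after adjustment.

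Cdkn2a was at 0.09162 CPM in young AL mouse 2 and at 0 in the other 3 young AL mice, a gap that spans the whole range of the group. That value is 1 read. It was 1 of 27 groups of 4 mice past Dixon's 95% critical value (0.829 for 4 samples). A single read among zeros always passes that value, which is meant for continuous measurements, so nothing is concluded from it.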

How the results depend on the processing

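No tested member was called in any of the 7 comparisons under the 23 other settings (161 of 161 counts), where the stricter filter left out Cdkn2c and so tested 6, and the smallest FDR of a member in any of them was 0.265. At these depths the 95% intervals extend from 1.11-fold (Cdkn1b) to 1.82-fold (Cdkn2c) to each side of the estimate, and Cdkn2a and Cdkn2b cannot be judged. Of 1071 log2 fold changes under other settings 1014 kept their direction, and those that turned were at most 0.16 in size as reported. Cdkn1b for diet in old mice was −0.00104 without the filter on low counts, −0.0034 with the stricter one and −0.0306 with lane as a covariate. With lane as a covariate Trp53 for diet in young mice was −0.0481 and Cdkn2c for the interaction 0.0848. By limma voom Cdkn1b for age in AL mice was −0.0542 and Cdkn1c for diet in old mice 0.0250. The causes of these turns were not tested.

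Leaving out 1 mouse at a time turned further values, which then ranged as follows. For age in AL mice it was Cdkn1a from −0.288 to 0.128, Cdkn1b from −0.0591 to 0.128 and Cdkn1c from −0.0385 to 0.349, and for age averaged over the diets Cdkn1b from −0.0794 to 0.0110 and Cdkn2d from −0.0146 to 0.0523. Under diet in the young it was Cdkn1c from −0.182 to 0.0422, Cdkn2c from −0.0220 to 0.274, Trp53 from −0.0729 to 0.0710 and Lmnb1 from −0.0871 to 0.0676. Under diet in the old it was Cdkn1b from −0.0317 to 0.0643, Cdkn1c from −0.249 to 0.144, Cdkn2c from −0.0832 to 0.182 and Trp53 from −0.0374 to 0.163, and for the average diet change Cdkn1c from −0.181 to 0.0166 and Trp53 from −0.0147 to 0.0855. The interaction ranged for Cdkn1c from −0.136 to 0.256, Cdkn2c from −0.224 to 0.0933, Trp53 from −0.0454 to 0.155 and Lmnb1 from −0.232 to 0.00587. In CPM, Cdkn2a for diet in young mice ranged from −0.0229 to 0.0342, Cdkn2b for diet in young mice from −0.143 to 0.0619 and Cdkn2b for diet in old mice from −0.270 to 0.0978.

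Mice with the same number share only that number: the deviations of 21 same-numbered pairs had a mean correlation of −0.0266 (range −0.113 to 0.113), with 2 pairs over 0.1. With the replicate block 0 members were called, the Cdkn1a value for diet in old mice was −0.47 and the Cdkn2d interaction 0.40. Under that block the calls of Ccnd2 (FDR 0.111), Top2a (0.113) and Csf1 (0.152) for age averaged over the diets were lost. With lane as a covariate those of Ccnd2 (0.154), Cxcl16 (0.108), Csf1 (0.143) and Cxcl5 (0.1006) were lost, all by edgeR.

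Over all genes, dropping the filter on low counts called 444 for age in AL mice, 100 for age in EOD mice and 653 for age averaged over the diets. For diet it called 26 in the young, 27 in the old and 65 on average, with 26 for the interaction. For age in EOD mice limma voom called 125 and DESeq2 70, and for age averaged over the diets 237 were called with lane as a covariate. DESeq2 called 1 for diet in the young, and voom and the lane covariate 2 each for diet in the old. Leaving out 1 mouse gave 102 to 221 for age under AL, 19 to 76 under EOD and 216 to 425 on average.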
